A study of Homo sapiens with 4 samples.

Results

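Zinc finger genes crowd human chromosome 19, and their response to BET protein degradation was examined here as a group. All protein-coding genes of chromosome 19 with a symbol of the form ZNF, a number and an optional letter were taken, whatever their level. The rule gave 246 genes of the 64252 in the count table. RNA was sequenced from cells labelled NB4 after 24 h with 8 μM dBET1 (2 libraries) or 24 h with its solvent DMSO (2 libraries). dBET1 is a proteolysis-targeting chimera that brings BET proteins to the E3 ligase adaptor CRBN. NB4 is an acute promyelocytic leukemia line with the PML-RARa fusion. The libraries are numbered 1 and 2 in each group, and the labels do not say whether they came from separate cultures. A general statement in the study's methods that experiments were repeated does not name these libraries, so the p-values measure the spread between them, which may be technical.

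Most proteins of this family carry a row of C2H2 zinc fingers that read DNA, and many begin with a KRAB domain. The KRAB domain binds TRIM28, which brings the histone methyltransferase SETDB1 and HP1 proteins to the bound site and silences it. Many members bind the remains of transposable elements. The genes arose by repeated tandem duplication, so neighbours in a cluster often resemble each other in sequence, and reads can be shared between near-identical copies.

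The libraries held 28019956 to 34685645 counts. Of the promyelocyte markers, the granule genes ELANE and CTSG had 0 counts in every library, MPO had 0 counts in both DMSO libraries, and all 6 markers with CD33 summed to 10.4 to 12.9 CPM (counts scaled to 1e+06 of the normalized library size). The 9 erythroid markers summed to 5253 and 6386 CPM in the DMSO libraries, against 3149 and 3096 CPM after dBET1. What part this difference has in the results below was not tested, and in bulk RNA fewer cells of a type and less RNA per cell cannot be told apart. Without CD33, the other 5 promyelocyte markers summed to 0.521 and 0.534 CPM in the DMSO libraries and 1.83 and 0.819 CPM after dBET1. Such low granule genes beside abundant erythroid genes go against the promyelocytic label. The cells are still called here as their label has them.

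The family was lowly expressed as a whole. In the 4 libraries its summed counts made up 0.235% to 0.298% of all counts. Of the 246 genes, 37 had no count in any library, and 61 had 3 counts or fewer in both DMSO libraries. The number of genes with at least 1 count was 188 and 192 with DMSO and 202 and 200 with dBET1. The filter on low counts kept 183 genes for testing. A gene silent with DMSO could pass it only through the dBET1 libraries, as 3 genes did (ZNF844, ZNF880 and ZNF382). These genes had to differ, and they are counted among the higher genes below. Others with few DMSO counts, such as ZNF528, ZNF610 and ZNF773, also passed only through the dBET1 libraries and are counted there too. A filter of at least 10 counts in every library, which no gene could pass through one group alone, left 166 genes. Of these 68 were higher, 27 of them past 2-fold, and 62 and 22 of them were also so with the first filter. The median log2 fold change of the 166 was 0.375, against 0.0186 over all genes that passed. The share of all genes called under this filter is not given here.

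With dBET1, more tested zinc finger genes rose than fell, and most did not pass the test in either direction. The quasi-likelihood test of edgeR was run over all 17971 genes that passed the filter, and a Benjamini-Hochberg adjusted p below 0.05 was taken as a call. By this rule 70 of the 183 were higher (38.3%, against 28.0% of all tested genes) and 15 were lower (8.20%, against 27.6%). Of all tested coding genes 27.3% were higher and 34.2% were lower. With a further limit of 2-fold, a log2 fold change (log2FC) above 1 or below -1, 30 were higher (16.4%), which is close to the 16.9% of all tested genes and the 13.7% of coding genes, so this share sets the family apart from neither. Only 2 were lower by as much (1.09%, against 8.54% of all and 9.35% of coding genes), ZNF787 and ZNF296. The median log2FC over the 183 genes was 0.40, against 0.048 over all tested genes. It stayed at 0.40 with the 2 genes that had no DMSO counts set to their lower bounds. The count of 70 dropped to 46 without dBET1 replicate 1, the 2 became 1 without dBET1 replicate 2, and the distance of the family's median from that of all genes, 0.349, became 0.213 without DMSO replicate 2 and 0.119 with no count filter. Both dBET1 libraries were above both DMSO libraries for 114 of the 183 genes (62.3%, against 41.9% of all tested genes) and below them for 28 (15.3%, against 37.4%).

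The summed level of all 246 genes changed little. The DMSO libraries had 2603 and 2558 CPM and the dBET1 libraries 2779 and 2742 CPM, a ratio of the means of 1.07, and the groups did not overlap. The top 10 genes of each library held 27.3% and 29.3% of the family's counts with DMSO and 20.4% and 20.6% with dBET1. The ratio depends on the scale and was 1.24 when counts were divided by the library totals alone.

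**Figure D1:**
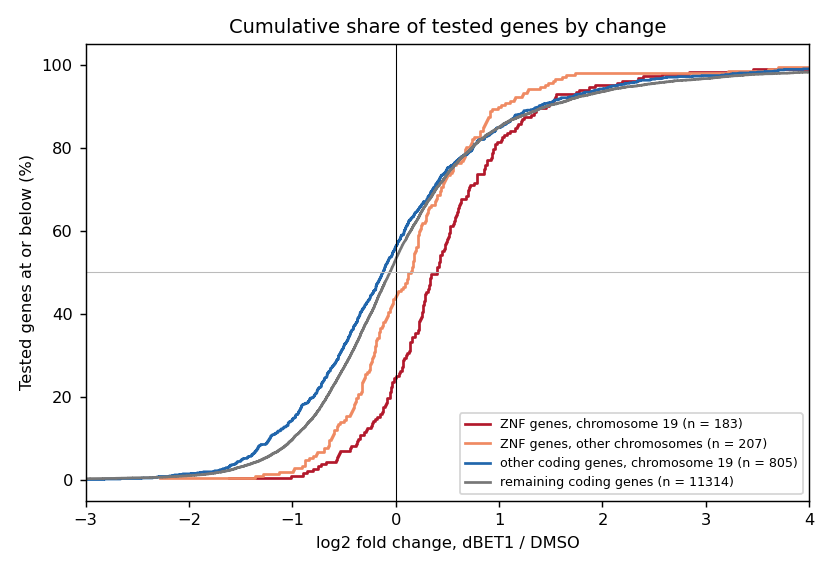
Cumulative share (vertical axis, %) of tested coding genes at or below each log2 fold change of dBET1 over DMSO (horizontal axis), for the 183 ZNF genes of chromosome 19, the 207 of other chromosomes, the other 805 coding genes of chromosome 19 and the remaining coding genes. The curve of the chromosome 19 ZNF genes lies to the right, with a median of 0.40, against 0.15 for ZNF genes elsewhere and -0.12 for the other coding genes of chromosome 19.

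Genes with the same kind of symbol on other chromosomes and the other coding genes of chromosome 19 were set beside the family. On other chromosomes, 62 of 207 tested ZNF genes were higher and 40 were lower (19.3%), with a median log2FC of 0.15. Among the other coding genes of chromosome 19, 198 of 805 were higher (24.6%) and 310 were lower (38.5%), with a median of -0.12. Across all 12509 tested coding genes the median was -0.049. These are counts side by side, since genes are not replicates, and no test of the difference between the sets was made.

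The change followed the DMSO level, in this family as in other coding genes. Levels were compared as RPKM, CPM per kb of merged exons, and the 185 genes above 3 counts with DMSO were divided into 3 equal classes. In the lowest class, up to 0.720 RPKM, 57 genes were tested, 26 were higher and 0 were lower, and the median log2FC was 0.86. The other coding genes of this class had a median of 0.93, and 45.5% of them were higher, against 45.6% in the family. Past the 2-fold limit the shares were 40.4% and 29.8%. Low zinc finger genes were thus near other low genes in their median and in the share higher at any fold. They were below them in the share past 2-fold and in the share lower (0%, against 4.98%). Among the 26 higher genes, ZNF528, ZNF610 and ZNF773 passed the count filter only through the dBET1 libraries. The filter was the same for all genes, so the shares and medians of this class are partly set by it.

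In the middle class, up to 2.44 RPKM, 29 of 61 genes were higher (47.5%, against 38.4% of other coding genes) and 1 was lower, with a median of 0.45 against 0.28 for other coding genes. In the highest class, up to 35.5 RPKM, 12 of 62 were higher (19.4%, against 16.8%) and 14 were lower. There the family's median was -0.025, while other coding genes had -0.28, with 49.2% of them lower against 22.6% in the family. Since the DMSO libraries enter both axes, the split was repeated by the mean of all 4 libraries, and the medians were then 0.82, 0.45 and 0.000069.

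**Figure D2:**
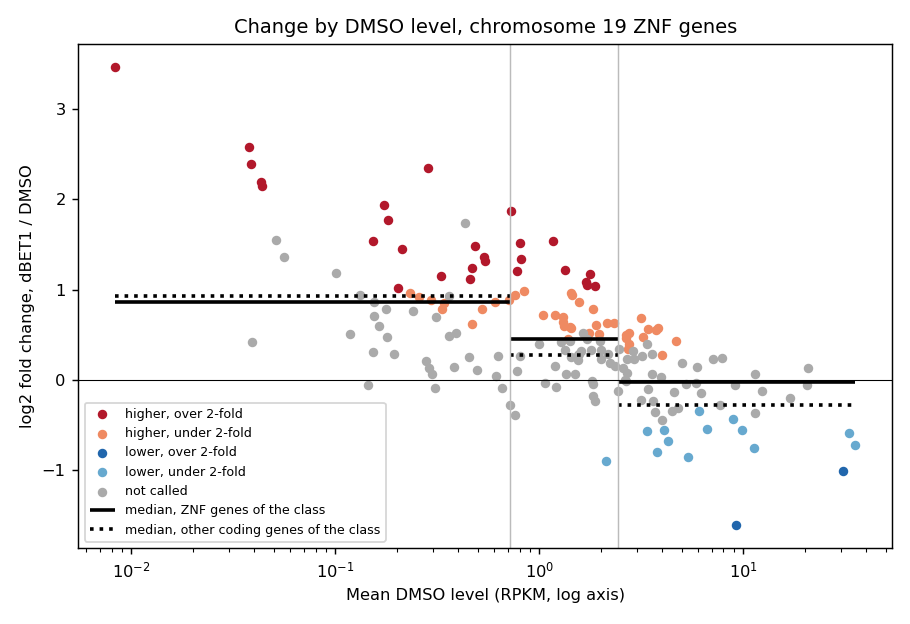
Log2 fold change of dBET1 over DMSO (vertical axis) against the mean DMSO level (RPKM, log axis) for tested chromosome 19 ZNF genes with over 3 counts in a DMSO library. Points are coloured by call. Solid lines are the class medians of the family, 0.86, 0.45 and -0.025 from low to high, and dotted lines those of other coding genes, 0.93, 0.28 and -0.28.

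Along the chromosome, 235 of the 246 genes fell into 9 clusters of at least 5 genes in which neighbouring starts lay at most 1 Mb apart. The clusters varied in how many of their genes were silent. All 9 had a median log2FC above 0, from 0.23 to 0.56. Of all tested genes, for comparison, 28.0% were higher, 16.9% were higher past 2-fold and 27.6% were lower. With a limit of 0.5 Mb 10 clusters resulted, 1 of which had a median of -0.20.

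The cluster from ZNF101 to ZNF254 (hg38, chromosome 19, 19668796 to 24129968), next to the centromere on the short arm, had more silent genes than any other. Of its 37 genes 17 had 3 counts or fewer in both DMSO libraries, and 14 had no count at all. Of the 18 tested, 9 were higher and 0 were lower, and only ZNF626 was called past the limit of 1 (ZNF66 had a log2FC of 1.18 without a call). The median change was 0.49, and 17 of 18 values were positive.

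In the cluster from ZNF175 to ZNF331 (51571283 to 53580269) 17 of 32 tested genes were higher (53.1%) and 0 were lower. Past the limit of 1, 7 were higher (21.9%). Its summed level was 433 and 396 CPM in the DMSO libraries and 552 and 531 CPM after dBET1, without overlap. Next to it towards the telomere, the largest cluster, from ZNF628 to ZNF446 (55476617 to 58481230), went both ways. Of its 51 tested genes 16 were higher (31.4%) and 8 were lower (15.7%), with a median of 0.23. Its sum was 877 and 933 CPM in the DMSO libraries and 858 and 846 CPM in the dBET1 libraries. Within it the genes from ZNF628 to ZNF444, at the centromeric end, included no higher gene, as the plot in chromosomal order shows.

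The cluster from ZNF653 to ZNF791 (11483427 to 12640098) had 9 of 21 tested genes higher and 0 lower. In that from ZNF565 to ZNF573 (36182276 to 37817300) 4 of 16 were higher and 1, ZNF146, was lower. In that from ZNF557 to ZNF846 (7069703 to 9793180) 4 of 13 were higher and 1, ZNF121, was lower. In that from ZNF575 to ZNF296 (43525497 to 45076478) 5 of 16 were higher and 3 were lower, and in each of the small clusters from ZNF554 to ZNF77 and from ZNF302 to ZNF792, 4 genes were tested, with 1 and 2 higher. Adjacent genes resembled each other only weakly. Over 135 pairs of adjacent tested genes 76 were both positive, 12 both negative and 47 of opposite sign, with a Pearson r of 0.12 and a Spearman rho of 0.18 across pairs, which share genes and libraries. Pearson's r includes the fitted values of the 2 genes with no DMSO counts. Of 77 pairs on the same strand 53 were both positive, and of 58 on opposite strands 23. Since 137 of the 183 tested genes had a positive log2FC, many pairs would be both positive without any resemblance between neighbours.

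**Figure D3:**
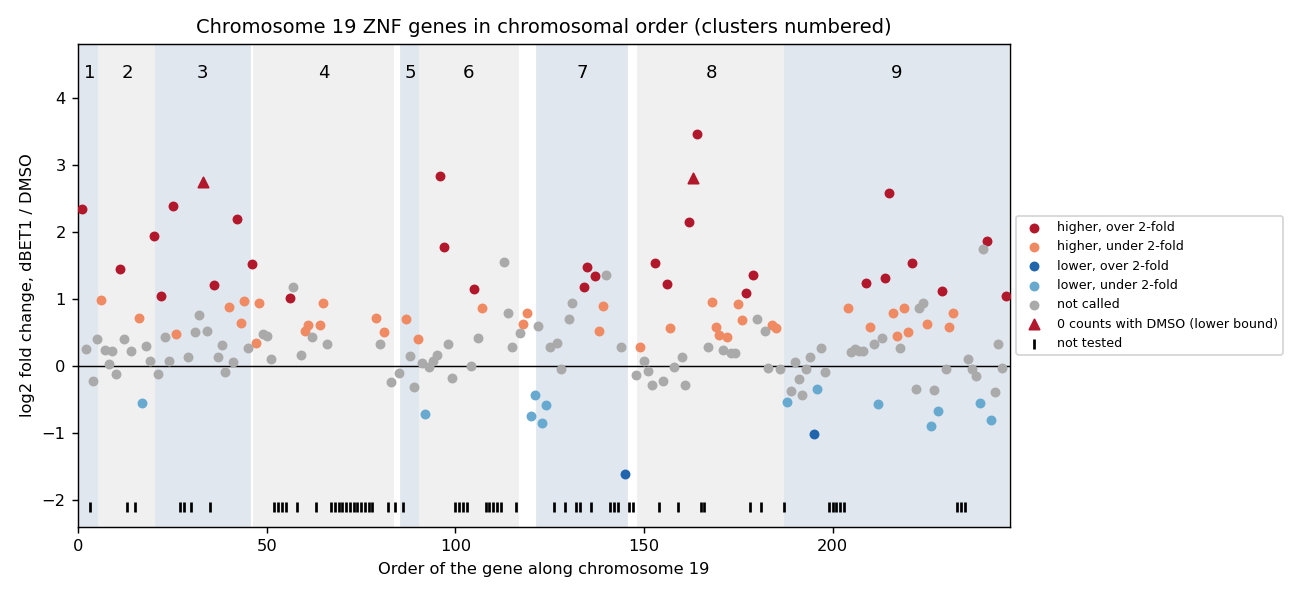
Log2 fold change of dBET1 over DMSO (vertical axis) for the 246 ZNF genes in their order along chromosome 19 (horizontal axis). Shaded bands are the 9 clusters, numbered from the short arm end, white gaps hold the 11 genes outside clusters, triangles are lower bounds for the 2 called genes with no DMSO counts, and ticks at the foot are the 63 genes not tested. Orange and red points (higher) occur in all 9 clusters, and the 15 blue points (lower) lie in clusters 2, 6, 7 and 9 and at the pair of genes just before cluster 7.

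Among the higher genes, ZNF333 had the smallest p. This KRAB gene, which lies outside the clusters (14689801 to 14733746, forward strand), was counted 275 and 287 times with DMSO and 805 and 803 with dBET1. Its mean level rose from 9.32 ± 1.26 to 26.6 ± 0.366 CPM (± SD, n = 2 per group), a log2FC of 1.51 (standard error SE 0.144, adjusted p = 0.000103 by edgeR's quasi-likelihood test). Part of its exons, 11.8%, overlaps ADGRE2 and ADGRE3 on the opposite strand.

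ZNF554, the first gene of its cluster, had 52 and 46 counts with DMSO and 214 and 283 with dBET1, a log2FC of 2.34 (SE 0.244, adjusted p = 0.000160 by the quasi-likelihood test). ZNF211 rose from 156 and 166 counts to 458 and 479, a log2FC of 1.54 (SE 0.176, adjusted p = 0.000252 by the same test). ZNF837, near the telomere of the long arm, rose from 48 and 42 counts to 165 and 163. In each of these genes the groups were far apart relative to their spread, and the lowest dBET1 library was over 2 times the highest DMSO library. They were named for their small p, so this distance follows from the choice and adds no support.

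ZNF224, ZNF225 and ZNF226, which lie close together with only the untested ZNF234 between them, all rose. ZNF224 encodes a KRAB repressor first studied at the aldolase A gene and also known as a partner of WT1. It had 426 and 338 counts with DMSO and 852 and 862 with dBET1, or 12.5 ± 0.727 and 28.3 ± 0.107 CPM (SD, n = 2 per group), a log2FC of 1.17 (SE 0.122, adjusted p = 0.000154 by edgeR's quasi-likelihood test). However, 42.4% of its exon length overlaps ZNF225-AS1 on the opposite strand, and the strand setting of the counting is not given in the sources used here.

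ZNF226, without any such overlap, rose from 185 and 158 counts to 398 and 467 (log2FC 1.34, SE 0.170, adjusted p = 0.000411 by the quasi-likelihood test). ZNF225, next to ZNF224 and chosen for its position after its values were seen, rose from 119 and 93 counts to 312 and 275 (log2FC 1.48). ZNF227, on the far side of ZNF226 and also chosen after its values were seen, rose less, from 286 and 252 counts to 366 and 401 (log2FC 0.51).

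The promoters of these 3 genes are shown because they share a repeated string, together with those of the 2 genes that fell past the limit. Each line gives 250 bases upstream of the RefSeq start (GRCh38.p14), 5′ to 3′ on the gene's strand. Capitals mark TTCTGGGAA, the SP1 core GGGCGG, the ETS core CCGGAAG and the E-box CACGTG on either strand, where matches of the ETS core on opposite strands may overlap.
ZNF224, chr19:44094111-44094360, forward strand: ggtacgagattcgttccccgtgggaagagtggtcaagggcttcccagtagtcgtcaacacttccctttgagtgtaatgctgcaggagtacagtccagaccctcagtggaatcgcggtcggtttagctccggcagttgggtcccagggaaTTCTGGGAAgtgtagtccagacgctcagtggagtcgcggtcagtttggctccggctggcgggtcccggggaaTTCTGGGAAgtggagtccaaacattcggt
ZNF225, chr19:44113149-44113398, forward strand: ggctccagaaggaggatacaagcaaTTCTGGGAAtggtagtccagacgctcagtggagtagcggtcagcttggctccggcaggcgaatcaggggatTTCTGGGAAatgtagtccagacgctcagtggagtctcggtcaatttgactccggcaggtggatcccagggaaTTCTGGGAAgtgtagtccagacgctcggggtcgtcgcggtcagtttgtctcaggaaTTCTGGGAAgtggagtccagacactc
ZNF226, chr19:44164850-44165099, forward strand: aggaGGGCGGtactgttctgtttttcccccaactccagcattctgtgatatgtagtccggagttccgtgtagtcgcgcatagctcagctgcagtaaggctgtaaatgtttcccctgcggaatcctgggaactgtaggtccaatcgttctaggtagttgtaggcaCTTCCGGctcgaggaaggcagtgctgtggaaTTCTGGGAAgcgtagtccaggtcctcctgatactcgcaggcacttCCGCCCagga
ZNF787, chr19:56121296-56121545, reverse strand: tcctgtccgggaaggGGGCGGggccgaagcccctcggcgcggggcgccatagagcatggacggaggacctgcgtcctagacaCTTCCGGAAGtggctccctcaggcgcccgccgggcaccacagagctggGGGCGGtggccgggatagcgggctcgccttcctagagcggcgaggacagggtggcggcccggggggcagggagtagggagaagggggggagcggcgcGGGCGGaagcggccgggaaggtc
ZNF296, chr19:45076479-45076728, reverse strand: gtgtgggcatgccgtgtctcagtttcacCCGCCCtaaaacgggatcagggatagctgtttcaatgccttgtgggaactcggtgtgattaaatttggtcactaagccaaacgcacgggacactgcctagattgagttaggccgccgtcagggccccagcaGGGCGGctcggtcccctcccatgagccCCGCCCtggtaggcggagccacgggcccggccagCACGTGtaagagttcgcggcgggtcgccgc

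The string TTCTGGGAA occurs 2 times in the window of ZNF224, 4 times in that of ZNF225 and 1 time in that of ZNF226, and not in those of ZNF787 and ZNF296. The longest run that ZNF224 and ZNF225 have in common is 36 bases, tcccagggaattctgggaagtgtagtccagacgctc. The RefSeq start of ZNF225 used here lies 1218 bp from the start in the annotation of the counts' symbols. The string was picked out after the sequences were seen.

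In windows of 300 bases around the start, TTCTGGGAA was found in 19 of the 216 family members with a RefSeq promoter (8.80%) and in 1.08% of all 15211 coding promoters, on either strand. Among ZNF promoters of other chromosomes it was found in 11 of 213 (5.16%). Of these 19 genes, 11 lie in the cluster from ZNF575 to ZNF296, where 55.0% of 20 promoters hold it. Among tested members it was in 3 of 28 higher past 2-fold (10.7%) and in 7 of 84 not called (8.33%). Those 3 are ZNF224, ZNF225 and ZNF226, the genes in which the string was picked out. At any fold it was in 6 of 65 higher and 0 of 15 lower. The 13 tested genes with it had a median log2FC of 0.70 and the 151 without it 0.33. The 6 higher genes and the 13 tested genes include the same 3 genes, so these values add no support.

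Other short strings were also counted on both strands. CCGGAAG, the core bound by ETS factors, was found in 44.4% of the family's promoters, in 33.3% of ZNF promoters of other chromosomes and in 14.4% of all coding promoters. Within the family it was in 72.4% of 29 promoters in the cluster from ZNF101 to ZNF254 and 8.33% of 24 in that from ZNF653 to ZNF791. Tested genes with it had a median of 0.46 and those without it 0.32. CACGTG, the E-box of MYC and MAX, was found in 4.17% of the family's promoters and in 8.89% of all coding promoters. The shares were 2.31% against 9.66% for TATAAA, 67.6% against 59.7% for GGGCGG and 5.09% against 3.20% for ACTACAA. The core of NRF1 sites, TGCGCA, was found in 41 of the 216 promoters, against 10.9% of all coding promoters. For AAGATGG, the core of YY1 sites, the shares were 7.87% and 6.48%. The median number of CG dinucleotides per window was 20, against 22 in all coding promoters.

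The lower genes were mostly abundant ones, 14 of the 15 in the highest class. Other coding genes had the same pattern, with 3854 lower in the highest class, 252 in the middle and 115 in the lowest. ZNF296, whose mouse counterpart is known from embryonic stem cells and reprogramming, had 461 and 452 counts with DMSO and 127 and 173 with dBET1. Its mean level fell from 15.1 ± 1.38 to 4.95 ± 1.02 CPM (± SD, n = 2 per group), a log2FC of -1.61 (SE 0.199, adjusted p = 0.000366 by edgeR's quasi-likelihood test). It was the deepest fall among tested family members, and ZNF296 ranked 12 by DMSO RPKM.

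ZNF787, ranked 3, had 3294 and 3546 counts with DMSO and 1759 and 1655 with dBET1, a log2FC of -1.01 (SE 0.118, adjusted p = 0.000271 by the quasi-likelihood test). Its log2FC fell short of the limit with total counts only (-0.798), at least 10 counts in every library (-0.939) and counts divided by 2 (-0.976). The same held without DMSO replicate 2 (-0.87) or dBET1 replicate 2 (-0.969), while the other alternatives gave -1.0 to -1.19. ZNF146, ranked 1, which encodes fingers without a KRAB domain, fell from 147 ± 14.7 to 89.4 ± 0.865 CPM (SD, n = 2 per group), a log2FC of -0.72. ZNF428, ranked 2, fell from 1553 and 1547 counts to 1030 and 1044 (log2FC -0.58, or -0.37 with total counts only), with 32.1% of its exon length overlapping SRRM5. The 3 most abundant genes of the family thus all fell, each with both dBET1 libraries below both DMSO libraries.

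The other 11 lower genes were ZNF574, ZNF584, ZNF576, ZNF8, ZNF121, ZNF587B, ZNF586, ZNF628, ZNF526, ZNF444 and ZNF749. All 15 had a DMSO level of at least 2.12 RPKM, with a median of 6.65, whereas the 70 higher genes had a median of 0.939 and at most 4.67 RPKM. The 98 tested genes without a call had a median of 1.68 RPKM. Abundance did not fix the direction, since ZNF317 (rank 7, 62.6 ± 1.46 against 57.5 ± 5.27 CPM; SD, n = 2 per group), ZNF480 and ZNF700, each the most abundant of its cluster, had no call.

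**Figure D4:**
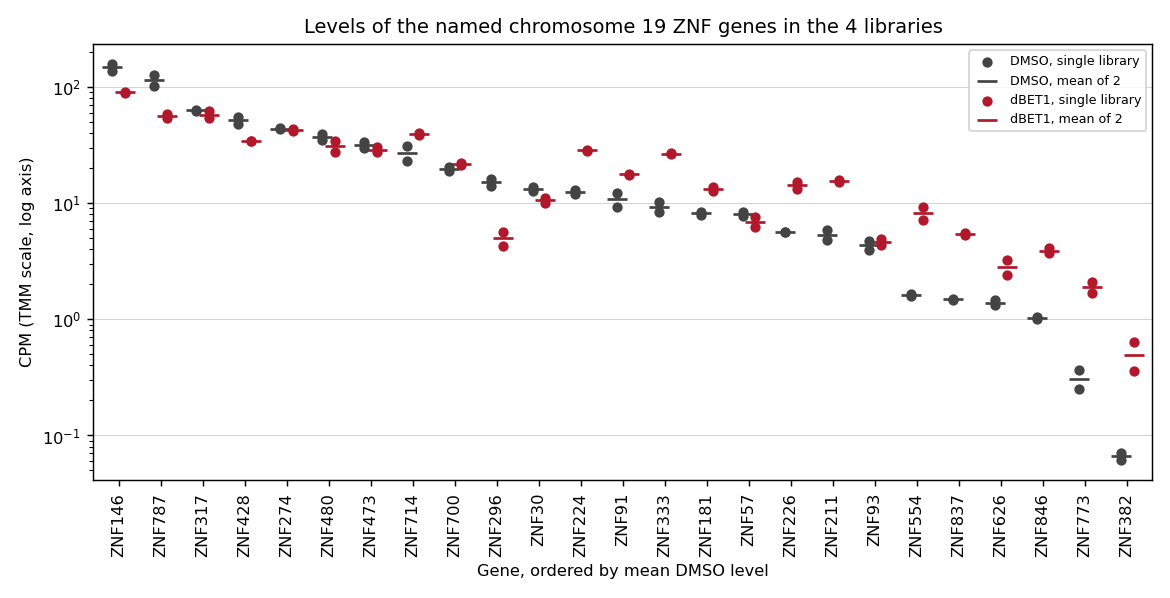
Level (CPM on the TMM scale, log axis) of named chromosome 19 ZNF genes in each library, ordered by mean DMSO level. Grey points are the 2 DMSO libraries, red points the 2 dBET1 libraries and dashes their means. ZNF146, ZNF787, ZNF428 and ZNF296 lie lower with dBET1, and the genes from ZNF554 to ZNF382 at the right lie higher in both dBET1 libraries.

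Several genes with few DMSO counts had larger folds. ZNF844 and ZNF880 had 0 counts in both DMSO libraries, and 22 and 18 and 17 and 25 counts with dBET1. They were at least 6.66-fold and at least 6.97-fold higher when the DMSO level was set to 3 counts per library. Of the exon length of ZNF844, 45.3% overlaps other genes on the same strand, while ZNF880 has no such overlap. Both neighbours of ZNF880, named after their values were seen, also rose, ZNF610 from 2 and 7 counts to 17 and 24 and ZNF528 from 0 and 4 to 26 and 21. With so few DMSO counts these neighbours too passed the filter only through the dBET1 libraries, so their rise is no independent support. No family member went from at most 3 counts to 30 or more in each library of the other group. ZNF382, a KRAB repressor reported as silenced in carcinomas, had 2 counts in each DMSO library and 19 and 11 with dBET1 (log2FC 2.84, SE 0.705, adjusted p = 0.0104 by the quasi-likelihood test). It passed the filter only through the dBET1 libraries, so its call is no independent support, and with no count filter the adjusted p was 0.0340 by the same test. The adjusted p was 0.0760 with DESeq2 and 0.0528 to 0.150 without DMSO replicate 1, DMSO replicate 2 or dBET1 replicate 1.

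ZNF773 rose from 12 and 7 counts to 50 and 64 (log2FC 2.58) and ZNF846 from 34 and 28 to 123 and 113 (log2FC 1.93). With 7 counts in DMSO replicate 2, ZNF773 passed the filter only through the dBET1 libraries, so its rise is no independent support. ZNF626 rose from 43 and 41 to 97 and 73 (log2FC 1.02), and its adjusted p of 0.0213 by the quasi-likelihood test became 0.0749 with DESeq2, 0.0613 with no count filter and 0.174 without dBET1 replicate 1. ZNF350, also called ZBRK1 and known as a partner of BRCA1, rose from 21 counts in each DMSO library to 59 and 63 (log2FC 1.53). It was named after its values were seen.

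Members with well known roles varied. ZNF91, which represses SVA elements, had 399 and 259 counts with DMSO and 536 and 531 with dBET1. Its mean level rose from 10.7 ± 2.13 to 17.6 ± 0.329 CPM (± SD, n = 2 per group), a log2FC of 0.71 (SE 0.170, adjusted p = 0.00863 by edgeR's quasi-likelihood test). ZNF93, which represses LINE-1 elements and lies in the same cluster, had 154 and 110 counts with DMSO and 131 and 150 with dBET1, and the groups overlapped (log2FC 0.10, SE 0.226).

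ZNF274 binds the ends of zinc finger genes themselves and recruits TRIM28 and SETDB1 there. Its level was 43.5 ± 0.838 CPM with DMSO and 42.3 ± 1.14 CPM with dBET1 (SD, n = 2 per group), a log2FC of -0.041 (SE 0.0892). ZNF473, a component of the machinery that trims histone messages, had 31.6 ± 2.67 and 28.8 ± 2.17 CPM (SD, n = 2 per group), a log2FC of -0.14 without a call. ZNF331, known from rearrangements in thyroid adenomas, had 0 counts in both DMSO libraries and 2 in each dBET1 library and was not tested.

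The most changed or most abundant members of the remaining clusters moved less. ZNF181 rose by 0.70 and ZNF714 by 0.52 on the log2 scale, the first not past the threshold without dBET1 replicate 2 (adjusted p = 0.0610 by the quasi-likelihood test) and the second not without dBET1 replicate 1 (adjusted p = 0.0727 from that test). With no count filter ZNF714 had no call either (adjusted p = 0.114 from that test), and without DMSO replicate 2 its log2FC was 0.30. ZNF57 and ZNF30 had log2FC values of -0.23 and -0.31 without a call. Strand and gene span made little difference. The median log2FC was 0.32 over 98 tested genes on the forward strand and 0.42 over 85 on the reverse strand. It was 0.34 and 0.42 over genes with a span up to and above 22.9 kb. By merged exon length the medians lay further apart, 0.27 over 92 genes up to 5630 bp and 0.48 over 91 above it. Of these genes, 26.1% and 50.5% were higher, and why they differ was not tested.

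The partners through which KRAB proteins silence DNA were set beside the family as a list of 27 genes. All were tested, 5 were higher (18.5%) and 13 were lower (48.1%) by the same rule, and the median log2FC was -0.21. Of all coding genes 34.2% were lower, and of those in the highest level class outside the family 49.2%, so the partners' share is near that of abundant genes. TRIM28, the direct KRAB partner, had 1106 ± 103 CPM with DMSO and 974 ± 5.42 CPM with dBET1 (SD, n = 2 per group), a log2FC of -0.18 without a call (adjusted p = 0.0859 by the quasi-likelihood test). SETDB1 had 59.4 ± 3.17 and 54.4 ± 3.81 CPM (SD, n = 2 per group), also without a call.

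The HP1 genes moved apart. CBX5 (HP1 alpha) rose by 0.73 on the log2 scale, while CBX1 and CBX3 (HP1 beta and gamma) had log2FC values of -0.50 and -0.43, all past the threshold. CHD3, a remodeler that binds TRIM28, had 4088 and 3748 counts with DMSO and 2010 and 1873 with dBET1 (log2FC -1.01), the only partner past the limit of 1. The HUSH complex genes MPHOSPH8 and TASOR rose by 0.51 and 0.38, and PPHLN1, the third HUSH gene, had -0.66. The maintenance DNA methyltransferase DNMT1 had -0.72, and the de novo enzyme DNMT3A rose by 0.95 on the log2 scale.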

How the data were processed

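RNA was sequenced from 2 dBET1 and 2 DMSO libraries. Per the labels and the paper's methods, the authors aligned 150 bp paired-end reads to hg38 with HISAT2 2.2.0 and used StringTie for abundances. The table that the authors deposited holds raw counts for each Ensembl gene. The counting step and its strand setting are not given in the sources used here. The counts summed to 28019956 to 34685645 per library, and 0 rows lacked a gene name.

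Symbols, positions and merged exon lengths came from GENCODE release 44 (hg38), which held 56105 of 64252 identifiers; those without an entry held 2.57% of the counts. Promoters came from RefSeq (GRCh38.p14), by symbol, for 216 of 246 members, taking the start nearest to the GENCODE start. Protein features were not analysed here. The counts were filtered by filterByExpr, put on the TMM scale and tested by quasi-likelihood in edgeR 4.0.16 in R 4.3.3 (group alone, Benjamini-Hochberg over 17971 genes). Each SE was obtained as the absolute log2 fold change over the root of F. Replicate counts differed by more than sampling noise (chi-square per degree of freedom 23.6 for DMSO and 8.14 for dBET1), and the fit was tested on simulated data.

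Named members are the 6 with the smallest p in each direction past both thresholds, the most abundant and, among those called, the most changed of each cluster, any that switched on or off, and 7 with known roles. Markers and partners were fixed lists. Members and lists were chosen with earlier results of these data known, so no p is given for a sum or list. Alternatives were DESeq2 1.42.0, its size factors, total counts, other count filters, a replicate block, each library left out, counts divided by 2, other cluster gaps and another level split.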

Additional observations from a re-analysis of the deposited data

How the results depend on the processing

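The direction of the family's median held under every alternative run. With total counts only, all genes had a median of 0.26 in place of 0.048 and the family 0.61, a distance of 0.349 on both scales, and small negative values turned positive (ZNF317 0.086, ZNF274 0.17, ZNF473 0.073). The lowest and highest cluster medians became 0.44 and 0.76 and the ratio of summed levels 1.24. With each library left out in turn, the median was 0.29 to 0.47, the lowest cluster median 0.12 to 0.25 and the highest 0.43 to 0.70 (the cluster values chosen after seeing the data), 28 to 32 genes were higher and 1 to 2 lower past the limit of 1, and 46 to 72 were higher and 11 to 18 lower at any fold. With no count filter 41 were higher at any fold. Only 1 gene was lower past the limit with total counts, with at least 10 counts in every sample and with counts divided by 2. With cluster gaps of 0.5 Mb the lowest cluster median was -0.20. With the replicate block, 32 genes were higher and 2 lower past the limit, and 69 and 16 at any fold. Replicate 1 deviations of the groups did not correlate (r = -0.0075). With 2 libraries a group this cannot settle whether equal numbers mark paired libraries, and the labels do not say. ZNF91 had no call with no count filter (adjusted p = 0.0571 by edgeR's test). Of 290 repeats of the 27 named genes with a fit, 11 lost a call and 2 gained one, and none reversed a call. With 2 libraries a group no library could be tested as outlying. Genes with few counts, near-identical copies and overlapping genes limit single values: of the 183 tested genes 112 share exon sequence with another gene, 8 of them over more than 50% of their exon length.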

Other observations

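Zinc finger pseudogenes and other genes of the same clusters were also counted. Of 19 ZNF pseudogenes of chromosome 19, 8 were tested, 1 was higher and 1 lower by edgeR's quasi-likelihood test (adjusted p below 0.05), and their median log2 fold change was 0.13. Of the 171 other coding genes that lie inside the 9 clusters, 81 were tested, 25 were higher and 25 were lower, with a median of 0.058, while 24 of them were higher past the limit of 1 and 7 were lower.

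ZNF497 had 0 counts in DMSO replicate 1 and 95 in DMSO replicate 2, with 158 and 176 counts after dBET1, and its log2 fold change of 1.74 had an adjusted p of 0.195 by the same test. Of its exon length, 52.3% overlaps other genes. It was named after its values were seen.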
